A study of Homo sapiens with 12 samples.

Results

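The DNA replication machinery is described here by 48 genes whose products license, fire, copy and complete replication origins or supply the nucleotides for it. Members were taken by their symbols from the 58174 genes listed in each of the tables for Hep-G2 and BE(2)-C cells, and all 48 were found in both. RNA with poly-A tails was sequenced from Hep-G2, a human hepatoblastoma cell line, and BE(2)-C, a human neuroblastoma cell line. Cells were harvested 72 h after transfection with the control siRNA CEL-miR-239b (siC) or with an siRNA pool directed specifically against IGF2BP1 (siI1), an RNA-binding protein. Each of the 4 groups comprised 3 biological replicates, giving 12 libraries. The siRNA concentration differed between the cell lines, so the line and the concentration cannot be told apart, and each group represents a single cell line. The comparison of siI1 with siC addresses which transcripts depend on IGF2BP1, and it was made within each line.

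Replication of the genome is prepared in the G1 phase, when the origin recognition complex (ORC), CDC6 and CDT1 load the ring of MCM proteins onto DNA, a step called licensing that geminin (GMNN) inhibits once S phase has begun. The kinase CDC7 with its activator DBF4 then allows CDC45 and the GINS complex to join the MCM ring, which becomes the active helicase. DNA polymerase alpha with primase starts each strand, polymerases epsilon and delta extend it with the sliding clamp PCNA and its loader RFC, RPA covers single-stranded DNA, and FEN1 and LIG1 process and join the Okazaki fragments. Many of these genes are transcribed late in G1 under control of E2F factors, and tumor cells commonly express them at high levels.

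Values are FPKM, that is fragments scaled to gene length and to the number of counted reads, here on a library size adjusted by trimmed mean of M-values (TMM) within each cell line. The Hep-G2 libraries held 13398903 to 15176939 reads on genes and those of BE(2)-C 12852988 to 15721210. Levels were compared on the log2(FPKM + 0.1) scale, which understates changes of genes with low values, and a gene was called at a limma adjusted p below 0.05. Among the Hep-G2 siI1 libraries, replicate 1 stood apart. Its reads per gene differed from those of replicates 2 and 3 by a chi-square per degree of freedom of 13.8 and 14.2, while replicates 2 and 3 differed by 1.98. The counts of members called in Hep-G2 are therefore also given without it.

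IGF2BP1 itself (chr17:48997385-49056145, hg38) was measured first. In Hep-G2, its level was 48.5, 46.6 and 50.8 FPKM in the siC libraries and 12.6, 10.7 and 10.7 FPKM in the siI1 libraries. All siI1 values lay below all siC values (log2 fold change −2.10, SE 0.08, adjusted p = 7.8e-06). The BE(2)-C siC libraries held 21.3, 20.6 and 21.6 FPKM and the siI1 libraries 4.85, 4.75 and 4.87 FPKM, again without overlap (log2 fold change −2.11, SE 0.05, adjusted p = 1.5e-05). The difference between the lines was not called (0.02, SE 0.09, adjusted p = 0.91).

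The cell lines matched their labels by marker genes. The 6 hepatocyte-like markers were present in all Hep-G2 libraries, led by albumin (ALB), and their summed level was 6952, 7022 and 6910.2 FPKM in siC and 11500, 13155 and 13313 FPKM in siI1. ALB, APOA1, SERPINA1 and HNF4A were higher and AFP and TTR lower after knockdown, though HNF4A was not called with equal sums of FPKM per library. The same list summed to at most 0.228 FPKM in the BE(2)-C libraries, where AFP and HNF4A were at 0 throughout. Conversely, the 6 neuroblastoma markers, led by MYCN, summed to between 2594 and 2783 FPKM in BE(2)-C and to at most 0.269 FPKM in Hep-G2, where HAND2 was at 0 throughout. The 5 fibroblast markers, led by PDGFRB, summed to at most 1.30 FPKM in Hep-G2. Their sum in BE(2)-C was 28.2, 24.6 and 28.98 FPKM in siC and 35.2, 36.7 and 35.04 FPKM in siI1, and LUM and DCN were the 2 that were higher in siI1. The 5 blood cell markers summed to at most 0.606 FPKM in BE(2)-C, and to 1373, 1379 and 1398 FPKM in siC and 167, 182 and 183 FPKM in siI1 of Hep-G2. The most abundant of them in Hep-G2 was lysozyme (LYZ), which fell from 1330.3, 1332 and 1355 FPKM to 124, 128 and 128 FPKM (log2 fold change −3.40, SE 0.06, adjusted p = 1.4e-06). Next came the invariant chain CD74, with 42.5, 46.7 and 42.5 FPKM in siC and 42.2, 54.03 and 54.1 FPKM in siI1, which overlapped (0.18, adjusted p = 0.21) and was called higher without siI1 replicate 1 (0.30). The hemoglobin gene HBB was listed at 0 in all siC libraries and had 0.753, 0.233 and 0.317 FPKM in siI1, from at most 12 reads. As it passed the filter through the siI1 libraries alone, no test is given for it. The pan-leukocyte gene PTPRC and the T cell gene CD3E were below the filter in both lines. The part of these shifts in the results on replication genes was not tested.

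All members were expressed. Each reached 0.1 FPKM, the filter, in 3 or more libraries of either line, and the fewest reads of any member were 38, for GINS3 in a Hep-G2 library, against 211 in BE(2)-C, for ORC4. PCNA was the most abundant member in every library. More than 5% of the exonic bases of DUT, GINS3, GINS4, MCM2, MCM7, POLA2, POLD1, PRIM1, RFC5 and TYMS are shared with another annotated gene, so the split of reads there is uncertain. In siC, the median over members was 8.95 FPKM in Hep-G2 and 25.5 FPKM in BE(2)-C, levels that come from tables normalized separately and were not tested against each other. Summed over the 48 members, the level was 699, 717 and 692 FPKM in the siC libraries of Hep-G2 and 692, 744 and 753 FPKM in its siI1 libraries, which overlapped. The BE(2)-C sum went from 1818, 1838 and 1772 FPKM in siC to 1483, 1452 and 1437 FPKM in siI1, without overlap. In bulk RNA, fewer cells in a cell cycle phase and less RNA per cell cannot be told apart.

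Knockdown of IGF2BP1 was followed by a lower level of most members in BE(2)-C and by changes in both directions in Hep-G2. Of the 48 members, 30 decreased and 2 increased in BE(2)-C, while 14.8% of all tested genes decreased and 13.3% increased there. The median log2 fold change of the members was −0.27 in this line, against 0.02 over all tested genes. For Hep-G2, decreases numbered 17 and increases 10, beside 23% and 21.9% of all tested genes in the respective direction, and the medians were −0.11 for members and 0.01 for all tested genes. Protein-coding genes, to which all members belong, were lower in 30.5% and higher in 25.3% of cases in Hep-G2, so that the 35.4% of members that were lower and the 20.8% that were higher lay close to this background in the main scaling. For BE(2)-C, the protein-coding shares were 19.9% lower and 15.5% higher, against 62.5% and 4.17% of the members.

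The split in Hep-G2 depended on the scaling of the libraries. With equal sums of FPKM per library, which shifted the median of all tested genes in Hep-G2 to −0.15, 25 members (52.1%) were lower and 5 (10.4%) higher, beside 39.9% and 18.9% of protein-coding genes. Summed over the hepatocyte-like markers, which enter these sums, Hep-G2 held 6910.2 to 7022 FPKM in siC and 11500 to 13313 FPKM in siI1. The part of such abundant genes in the shift was not tested. With median centring there were 14 lower (29.2%) and 13 higher (27.1%), beside 25.3% and 30.1%. The 5 members called higher under every setting tried were GMNN, POLD2, POLE2, RPA3 and TYMS. Without siI1 replicate 1, the library that stood apart, 18 members were lower and 11 higher in Hep-G2. By role, described further down, this changed the counts for origin firing, with 5 lower in place of 4 by the call of CDC7, and for nucleotide supply, with 2 higher in place of 1 by that of DUT. Without siC replicate 1 the higher members numbered 6, and without siC replicate 3 also 6. For BE(2)-C, the higher members numbered 0 without siI1 replicate 2 or 3 and 1 without siI1 replicate 1. Lower members there numbered 25 (52.1%) with median centring and 26 (54.2%) with equal sums of FPKM, beside 3 and 2 higher. The protein-coding shares that were lower were 17.2% and 18.7%. Without the mean-variance trend 23 members were lower in BE(2)-C, and 23 at an adjusted p below 0.01. The distance of the members' median from that of all tested genes was −0.11 in the main scaling of Hep-G2, −0.10 with median centring and −0.12 with equal sums, and it was −0.29 under all 3 in BE(2)-C.

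**Figure D1:**
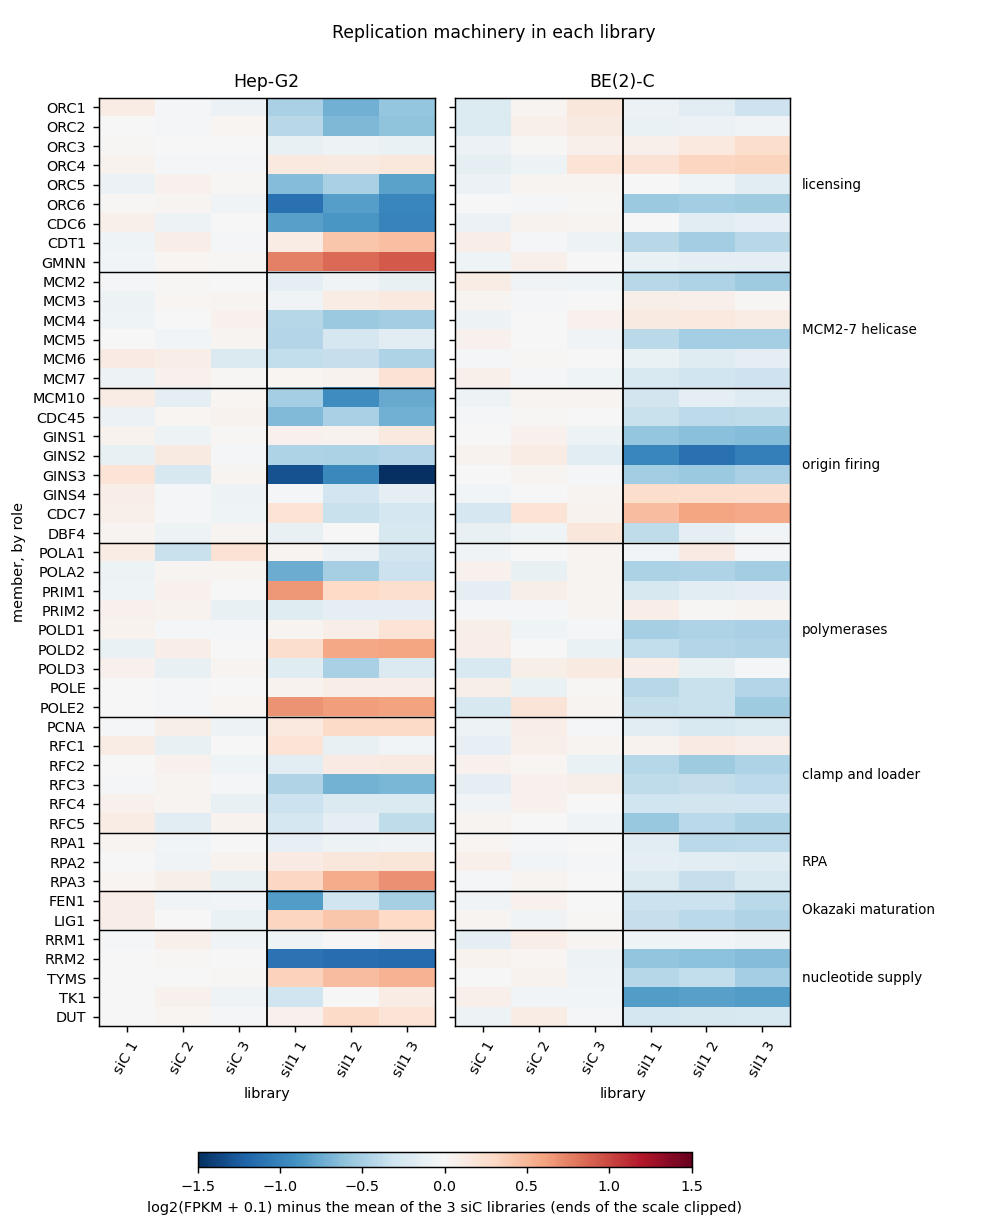
Heat map of the 48 members (lines of the map, ordered by role) in the 12 libraries (columns), where color gives log2(FPKM + 0.1) minus the mean of the 3 siC libraries of the same line, blue for lower and red for higher. Blue prevails in the BE(2)-C siI1 libraries, where 30 members were lower, whereas the Hep-G2 siI1 libraries hold both colors, with 17 lower and 10 higher members, or 25 and 5 with equal sums of FPKM.

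Across the lines, 12 members were lower in both, namely ORC6, MCM5, MCM6, MCM10, CDC45, GINS2, GINS3, POLA2, RFC3, RFC4, FEN1 and RRM2. Among all genes tested in both lines, 6.6% were lower in both and 4.34% higher in both. This background, like the shares below, holds genes of every type, whereas all members are protein-coding. A further 8 members increased in Hep-G2 but decreased in BE(2)-C, namely CDT1, POLD2, POLE2, PCNA, RPA2, RPA3, LIG1 and TYMS, a combination found for 3.31% of all genes tested in both lines, although with equal sums of FPKM the rise in Hep-G2 was no longer called for CDT1, PCNA and LIG1 and RPA2 was at −0.01. Both counts moved with the libraries used and with the scaling. Members lower in both lines numbered 7 without Hep-G2 siC replicate 1, 8 without Hep-G2 siI1 replicate 2, 9 to 12 with any other library left out, 8 with median centring and 14 with equal sums of FPKM. Those that increased in Hep-G2 but decreased in BE(2)-C numbered 7 without Hep-G2 siC replicate 2, 9 without Hep-G2 siI1 replicate 1 or BE(2)-C siC replicate 1, 5 with any other library left out, 7 with median centring and 3 with equal sums. Without Hep-G2 siI1 replicate 1, the library that stood apart, the 12 were the same and DUT was the ninth of the other class. The opposite combination, a decrease in Hep-G2 with an increase in BE(2)-C, held for 2.51% of all genes and by limma for 0 members, against 1 at an unadjusted p below 0.05, 1 with limma voom on recovered reads (MCM4), 1 with median centring and 1 without Hep-G2 siI1 replicate 1 (CDC7). By limma, 0 members were higher in both lines, and so it was at an unadjusted p below 0.05 (0) and with limma voom (0).

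Promoter sequences of RefSeq (GRCh38.p14, 250 bases before to 50 bases after the transcription start) were matched for 42 of the 48 members, and were read because most members were lower in BE(2)-C and because E2F1 and E2F2, described further down, were lower in both lines. Each promoter was searched on both strands for the E2F-type words TTTCCCGC, TTTCGCGC, TTTGCCGC and TTTGGCGC, of which TTTCGCGC can overlap its own reverse complement. At least 1 of these words was present in 18 member promoters (42.9%), in 3.33% of all 27305 promoters and in 5.68% of the 8736 promoters of protein-coding genes tested in both lines. It was found for 5 of the 11 matched members that were lower in both lines and for 5 of the 6 matched members that increased in Hep-G2 but decreased in BE(2)-C. They were also found for 3 of the 8 matched members that were called in neither line, and for 6 of the 32 matched replication genes outside the members (18.8%). By the call in BE(2)-C, they were found for 14 of 27 matched lower members, 4 of 14 uncalled and 0 of 1 higher. By that in Hep-G2, they were found for 6 of 15 lower, 7 of 19 uncalled and 5 of 8 higher. The part of E2F factors in these changes was not tested. A match describes the letters of a window and is not a measured binding site. The windows of the 10 members of both classes are shown 5′ to 3′ on the strand of the gene, with E2F-type words in capitals. The first 5 were lower in both lines (chr2:135876496-135876555, chr16:85688952-85689011, chr16:58392440-58392499, chr11:65261883-65261942 and chr13:33818068-33818127), and the next 5 increased in Hep-G2 but decreased in BE(2)-C (chr16:88803728-88803787, chr14:49688186-49688245, chr20:5126648-5126707, chr19:48170425-48170484 and chr18:657588-657647).
MCM6: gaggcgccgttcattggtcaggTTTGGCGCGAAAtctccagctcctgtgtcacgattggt
GINS2: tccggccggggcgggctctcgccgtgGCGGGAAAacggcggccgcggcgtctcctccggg
GINS3: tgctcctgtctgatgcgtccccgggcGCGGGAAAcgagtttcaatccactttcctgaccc
POLA2: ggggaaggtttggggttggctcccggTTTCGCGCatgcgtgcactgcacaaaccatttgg
RFC3: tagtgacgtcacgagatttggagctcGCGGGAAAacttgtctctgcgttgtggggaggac
CDT1: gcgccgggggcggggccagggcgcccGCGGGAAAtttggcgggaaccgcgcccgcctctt
POLE2: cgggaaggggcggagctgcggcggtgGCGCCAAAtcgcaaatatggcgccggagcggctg
PCNA: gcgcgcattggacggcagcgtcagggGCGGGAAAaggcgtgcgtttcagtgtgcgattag
LIG1: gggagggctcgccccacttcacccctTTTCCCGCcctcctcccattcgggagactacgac
TYMS: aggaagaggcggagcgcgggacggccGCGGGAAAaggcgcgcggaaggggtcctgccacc

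The RRM2 promoter held none of the E2F-type words in its 300 bases, although RRM2 was among the members most reduced in both lines. It held the word CCAAT, which was present in 22 of 42 member promoters (52.4%), in 35.7% of all promoters and in 19 of the 32 matched replication genes outside the members (59.4%), at 3 positions. It is shown for chr2:10122489-10122788, on the plus strand of the gene, with CCAAT in capitals.
RRM2: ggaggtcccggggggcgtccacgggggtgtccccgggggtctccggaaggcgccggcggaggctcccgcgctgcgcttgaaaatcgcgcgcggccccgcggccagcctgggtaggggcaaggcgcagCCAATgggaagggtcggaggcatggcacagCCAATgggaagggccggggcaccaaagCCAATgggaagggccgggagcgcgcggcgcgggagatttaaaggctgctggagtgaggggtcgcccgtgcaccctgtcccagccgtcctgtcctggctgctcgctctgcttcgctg

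Licensing factors changed in both directions in Hep-G2. Of the 9 genes, 5 decreased and 2 increased in this line (median log2 fold change −0.56), whereas 2 decreased in BE(2)-C, where the median was −0.09, or −0.06 with median centring. ORC6 (chr16:46689643-46698394), the smallest subunit of the origin recognition complex, had 9.54, 9.67 and 9.06 FPKM in siC and 4.29, 5.28 and 4.74 FPKM in siI1 libraries of Hep-G2. The BE(2)-C libraries had 18.7, 18.4 and 18.9 FPKM in siC and 12.6, 12.9 and 12.9 FPKM of ORC6 in siI1. The groups did not overlap in either line, and ORC6 fell in both (log2 fold change −0.97, SE 0.09, adjusted p = 0.0002 in Hep-G2 and log2 fold change −0.54, SE 0.04, adjusted p = 0.00033 in BE(2)-C). Further ORC subunits fell in Hep-G2, namely ORC1 (−0.60, adjusted p = 0.0045), ORC2 (−0.56, adjusted p = 0.0013) and ORC5 (−0.64, adjusted p = 0.0029). Their values in BE(2)-C were −0.19, −0.08 and −0.08, none of them called, and the difference between the lines was called for ORC2 and ORC5 but not for ORC1 (adjusted p = 0.058), except with equal sums of FPKM, with a filter of 1 FPKM and without Hep-G2 siI1 replicate 1 or BE(2)-C siC replicate 3. ORC3 and ORC4 passed the threshold in neither line, but in Hep-G2 ORC3 did with equal sums of FPKM (−0.26) and ORC4 with median centring (0.24), and ORC4 did in BE(2)-C with limma voom (0.30).

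CDC6 (chr17:40287879-40304657), the ATPase that joins ORC at the origin, had 12.2, 10.98 and 11.6 FPKM in siC and 6.53, 6.26 and 5.71 FPKM in siI1 libraries of Hep-G2, so that every siI1 library lay below every siC library (log2 fold change −0.90, SE 0.08, adjusted p = 0.00014). Its BE(2)-C values of 23.8, 26.2 and 26.01 FPKM in siC and 25.4, 22.6 and 23.3 FPKM in siI1 overlapped (log2 fold change −0.09, adjusted p = 0.31). Its partner in MCM loading, CDT1, moved differently. In Hep-G2, CDT1 was at 11.6, 13.00 and 11.8 FPKM in siC and 13.1, 16.2 and 16.6 FPKM in siI1, where the lowest siI1 value only just exceeded the highest siC value (log2 fold change 0.33, SE 0.10, adjusted p = 0.039). This call was lost without siC 1, siC 3, siI1 2 or siI1 3 (0.26 to 0.31) and with equal sums of FPKM (0.16). In BE(2)-C cells CDT1 fell from 48.1, 44.6 and 42.6 FPKM to 33.7, 31.3 and 33.6 FPKM without overlap (log2 fold change −0.45, SE 0.06, adjusted p = 0.002).

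GMNN (chr6:24774931-24786099) encodes geminin, the inhibitor of CDT1, and was the member with the largest increase in Hep-G2. Its level was 19.6, 20.6 and 20.5 FPKM in siC and 34.1, 36.6 and 38.4 FPKM in siI1, with a clear gap between the groups (log2 fold change 0.84, SE 0.06, adjusted p = 6.7e-05). For BE(2)-C, 27.6, 30.6 and 28.9 FPKM in siC stood against 27.1, 26.2 and 26.4 FPKM in siI1, where the groups did not overlap either but the change was not called (log2 fold change −0.13, SE 0.05, adjusted p = 0.1) except without siC replicate 1 (−0.16). The ratio of GMNN to CDT1, a quantity picked after the values were seen and free of library scaling, was 1.69, 1.58 and 1.73 in siC and 2.61, 2.26 and 2.31 in siI1 of Hep-G2. The BE(2)-C values were 0.574, 0.685 and 0.679 in siC and 0.806, 0.836 and 0.783 in siI1. Each siI1 library had a higher ratio than every siC library of the same line.

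The MCM2-7 ring, the core of the replicative helicase, changed unevenly among its 6 subunits. Hep-G2 had 3 lower subunits and a median of −0.20, BE(2)-C 4 and a median of −0.21, and median centring left 1 in Hep-G2 (median −0.11) and 3 in BE(2)-C, while equal sums of FPKM gave 4 (median −0.36) and 3. MCM5 and MCM6 were lower in both lines. For MCM5, the values in Hep-G2 were 9.58, 9.299 and 9.83 FPKM in siC and 7.003, 8.01 and 8.48 FPKM in siI1, those in BE(2)-C 52.2, 49.8 and 48.4 FPKM and 37.9, 35.2 and 35.2 FPKM, and in neither line did the groups overlap. The log2 fold change was −0.29 in Hep-G2 (SE 0.08, adjusted p = 0.027) and −0.47 in BE(2)-C (SE 0.05, adjusted p = 0.00093). The call in Hep-G2 was lost without siC 1, siC 2, siC 3 or siI1 2 (−0.31 to −0.27) and with median centring (−0.20). MCM6, the least abundant subunit, had 7.62, 7.501 and 5.99 FPKM and 5.39, 5.49 and 5.03 FPKM in Hep-G2 (log2 fold change −0.39, SE 0.11, adjusted p = 0.022), and 26.2, 27.1 and 26.7 FPKM and 24.8, 23.4 and 24.3 FPKM in BE(2)-C (log2 fold change −0.14, SE 0.04, adjusted p = 0.045). Both calls lay near the threshold, since the Hep-G2 call was lost without siC 1, siC 2, siI1 2 or siI1 3 (−0.42 to −0.33) and with median centring (−0.30), and the BE(2)-C call without siC 1, siC 2, siC 3, siI1 1, siI1 2 or siI1 3 (−0.16 to −0.12) and under both other scalings.

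MCM2 and MCM7 were lower in BE(2)-C, and MCM4 was lower in Hep-G2. MCM2 had 103, 91.3 and 90.6 FPKM in siC and 71.1, 68.5 and 65.5 FPKM in siI1 of BE(2)-C (log2 fold change −0.47, SE 0.06, adjusted p = 0.0021), while Hep-G2 held 13.4, 13.7 and 13.6 FPKM and 12.2, 13.03 and 12.6 FPKM (−0.10, adjusted p = 0.14), a decrease called only with equal sums of FPKM among the scalings (−0.27). MCM7, the most abundant subunit in BE(2)-C, went there from 193, 182 and 176 FPKM to 156, 149 and 148 FPKM (log2 fold change −0.28, SE 0.05, adjusted p = 0.0072). Its Hep-G2 libraries overlapped, with 25.3, 27.9 and 26.9 FPKM in siC and 27.3, 27.6 and 31.1 FPKM in siI1 (0.10, adjusted p = 0.28). MCM4 had 15.3, 15.8 and 16.7 FPKM in siC and 11.9, 10.8 and 11.04 FPKM in siI1 of Hep-G2 (log2 fold change −0.50, SE 0.06, adjusted p = 0.00081). By contrast, all its BE(2)-C siI1 values of 63.1, 63.8 and 62.3 FPKM lay above the siC values of 54.7, 57.9 and 60.03 FPKM, though this was not called (log2 fold change 0.13, SE 0.05, adjusted p = 0.072) except with median centring (0.17) and with limma voom on recovered reads (0.13). MCM3 was the most abundant subunit in Hep-G2, and its groups overlapped in both lines, with log2 fold changes of 0.07 and 0.06. The ratio of the most to the least abundant subunit in FPKM ran from 5.39 to 7.48 over the siC libraries and from 7.78 to 9.52 over the siI1 libraries of Hep-G2, and from 6.58 to 7.34 and 6.06 to 6.35 in BE(2)-C.

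Factors of origin firing included strong decreases in each line, with GINS3 in Hep-G2 and GINS2 in BE(2)-C. Hep-G2 showed a decrease for 4 of 8 (median −0.31, or −0.47 with equal sums of FPKM), and BE(2)-C a decrease for 5 and an increase for 2 (median −0.28). GINS is a ring of 4 subunits that binds CDC45 and the MCM ring. GINS3 had the lowest log2 fold change of the members in Hep-G2, where 2.79, 2.01 and 2.47 FPKM in siC compared with 0.913, 1.18 and 0.557 FPKM in siI1 (log2 fold change −1.40, SE 0.27, adjusted p = 0.0052). As 38 to 221 reads stood behind these values, their spread was wide, but the groups did not overlap. With a pseudocount of 1 its value was −0.87, behind that of RRM2 (−1.08), and without siI1 replicate 3 both were at −1.13. GINS3 also fell in BE(2)-C, from 10.1, 10.4 and 9.93 FPKM to 7.05, 6.89 and 7.21 FPKM (log2 fold change −0.52, SE 0.05, adjusted p = 0.00074).

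GINS2 (chr16:85676198-85690073) showed the reverse order of the lines. It was the member with the largest decrease in BE(2)-C, from 42.9, 45.00 and 37.1 FPKM in siC to 21.1, 19.1 and 20.4 FPKM in siI1 (log2 fold change −1.04, SE 0.08, adjusted p = 0.00032). In Hep-G2, it went from 6.75, 8.05 and 7.23 FPKM to 5.28, 5.24 and 5.39 FPKM (log2 fold change −0.46, SE 0.08, adjusted p = 0.0038). GINS1 fell in BE(2)-C from 25.8, 26.8 and 24.4 FPKM to 17.2, 16.6 and 16.3 FPKM (log2 fold change −0.62, SE 0.05, adjusted p = 0.00039), whereas its Hep-G2 values of 11.9, 10.9 and 11.5 FPKM and 11.98, 11.9 and 12.6 FPKM overlapped (0.09, called with median centring at 0.18). The remaining subunit, GINS4, was one of the 2 members that rose in BE(2)-C, from 5.496, 5.66 and 5.85 FPKM to 6.82, 6.74 and 6.75 FPKM (log2 fold change 0.25, SE 0.06, adjusted p = 0.017), a call lost without siI1 1, siI1 2 or siI1 3 (0.25 to 0.26). The 4 subunits of this complex did not all move in 1 direction in BE(2)-C.

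CDC45 and MCM10, which help to activate the helicase, were lower in both lines. CDC45 went from 3.92, 4.25 and 4.34 FPKM to 2.598, 2.94 and 2.497 FPKM in Hep-G2 (log2 fold change −0.62, SE 0.10, adjusted p = 0.0024). The BE(2)-C libraries held 37.5, 38.8 and 38.3 FPKM in siC and 30.4, 29.1 and 29.3 FPKM in siI1 (log2 fold change −0.37, SE 0.04, adjusted p = 0.001). MCM10 had 4.46, 3.75 and 4.23 FPKM and 2.87, 2.13 and 2.400 FPKM in Hep-G2 (log2 fold change −0.73, SE 0.13, adjusted p = 0.0043) and 10.8, 11.7 and 11.7 FPKM and 9.39, 10.4 and 9.92 FPKM in BE(2)-C (log2 fold change −0.20, SE 0.06, adjusted p = 0.045). None of these groups overlapped, but the BE(2)-C call of MCM10 was lost without siC 2, siC 3, siI1 1, siI1 2 or siI1 3 (−0.23 to −0.16) and under both other scalings. The kinase subunit CDC7 rose in BE(2)-C, from 7.52, 10.4 and 9.33 FPKM to 12.4, 13.7 and 13.4 FPKM (log2 fold change 0.54, SE 0.12, adjusted p = 0.014), a call lost without siI1 2 or siI1 3 (0.51 to 0.53). Between the Hep-G2 groups CDC7 overlapped (−0.13, adjusted p = 0.53), but without siI1 replicate 1, the library that stood apart, it was called lower (−0.30). Its activator DBF4 overlapped in both lines.

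**Figure D2:**
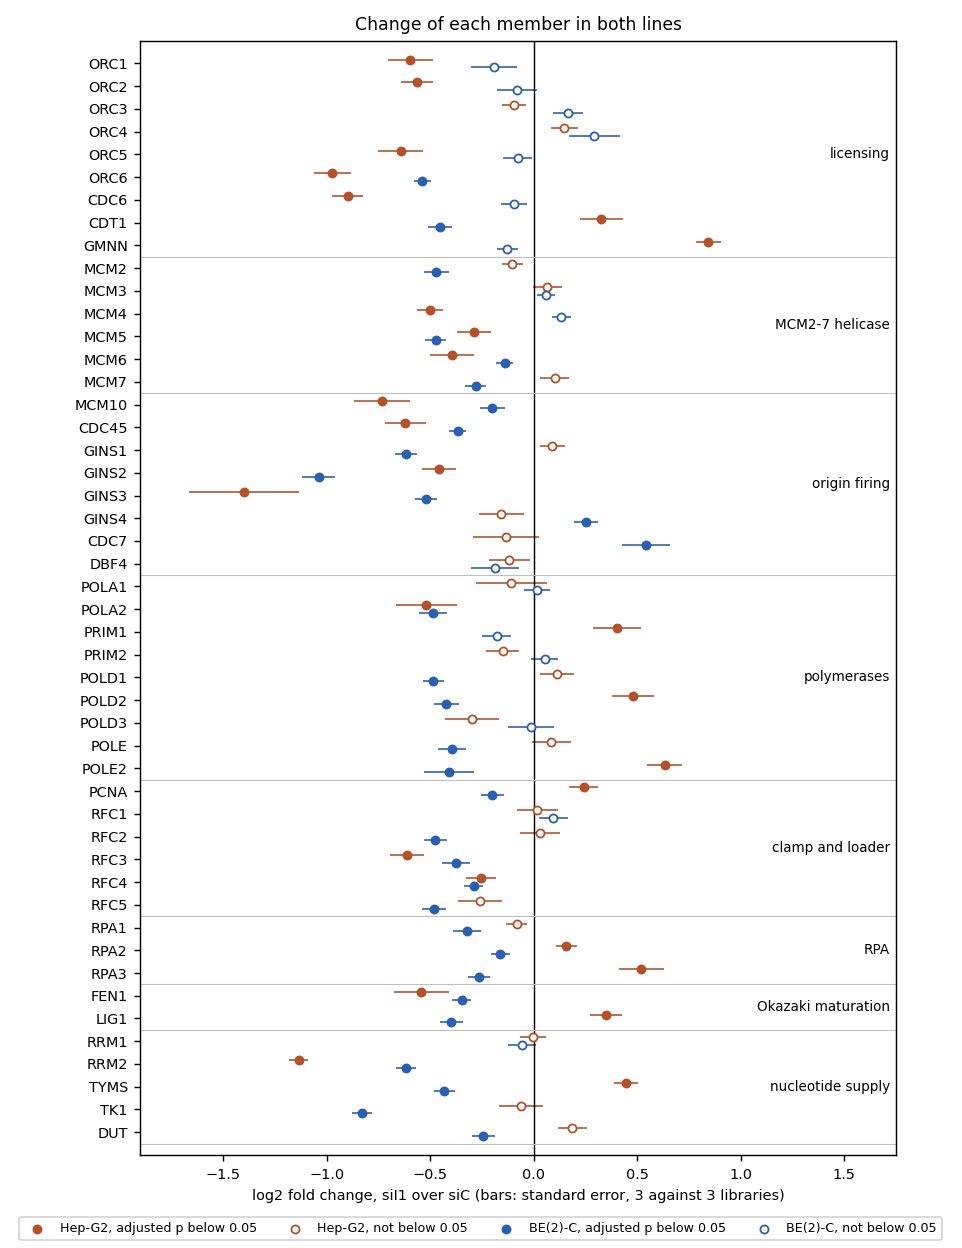
Log2 fold change of siI1 over siC for each of the 48 members, ordered by role, in Hep-G2 (brown) and BE(2)-C (blue). Points are estimates from 3 against 3 libraries on the log2(FPKM + 0.1) scale, bars are standard errors, and filled points have an adjusted p below 0.05, those of BE(2)-C lying to the left except GINS4 and CDC7 and those of Hep-G2 on both sides, where RPA2 turns to −0.01 with equal sums of FPKM.

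DNA polymerases and primase differed between the lines in the direction of most calls. Of the 9 genes, 5 decreased in BE(2)-C (median −0.40). Hep-G2 had 1 decrease and 3 increases with a median of 0.08, but 3 decreases, 2 increases and a median of −0.08 with equal sums of FPKM. POLE2 (chr14:49643555-49688422), the second subunit of the leading strand polymerase epsilon, had 2.35, 2.33 and 2.41 FPKM in siC and 3.83, 3.695 and 3.65 FPKM in siI1 of Hep-G2. The groups were far apart relative to their spread (log2 fold change 0.63, SE 0.08, adjusted p = 0.001). POLE2 went in BE(2)-C from 6.77, 9.21 and 8.28 FPKM to 6.22, 6.37 and 5.51 FPKM (log2 fold change −0.41, SE 0.12, adjusted p = 0.043), and this decrease was lost without siC 2, siC 3, siI1 1, siI1 2 or siI1 3 (−0.45 to −0.31) and under both other scalings. POLD2, an accessory subunit of the lagging strand polymerase delta, rose in Hep-G2 from 16.8, 19.3 and 17.9 FPKM to 21.7, 26.9 and 27.2 FPKM (log2 fold change 0.48, SE 0.10, adjusted p = 0.0082) and fell in BE(2)-C from 85.1, 79.3 and 73.6 FPKM to 61.1, 58.2 and 57.9 FPKM (log2 fold change −0.42, SE 0.06, adjusted p = 0.0028). Neither pair of groups overlapped.

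The catalytic subunits POLD1 and POLE were lower in BE(2)-C, with log2 fold changes of −0.48 (adjusted p = 0.00087) and −0.40 (adjusted p = 0.0059), and were not called in Hep-G2 (0.11 and 0.08). POLA2, a subunit of polymerase alpha, was lower in both lines. It had 1.92, 2.09 and 2.096 FPKM and 1.18, 1.42 and 1.61 FPKM in Hep-G2 (log2 fold change −0.52, SE 0.15, adjusted p = 0.026), a call lost without siC 1, siC 2, siC 3 or siI1 2 (−0.56 to −0.50). For BE(2)-C, 8.33, 7.36 and 8.18 FPKM in siC stood against 5.67, 5.75 and 5.496 FPKM in siI1 (log2 fold change −0.49, SE 0.07, adjusted p = 0.0026), with no overlap in either line. The primase subunit PRIM1 was higher in Hep-G2 (0.40, adjusted p = 0.028), but not with equal sums of FPKM (0.24) nor without siC 1, siC 2 or siC 3 (0.37 to 0.43), and its highest value, 8.59 FPKM, was in siI1 replicate 1. POLA1, PRIM2 and POLD3 passed the threshold in neither line, but PRIM2 (−0.31) and POLD3 (−0.46) did in Hep-G2 with equal sums of FPKM.

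The sliding clamp and its loader were lower in BE(2)-C, where 5 of 6 were called with a median of −0.33, against 2 lower and 1 higher in Hep-G2 with a median of −0.12. The Hep-G2 counts were 3 lower with equal sums of FPKM (median −0.28), where PCNA lost its call, and 1 lower and 1 higher with median centring (median −0.03). PCNA was at 164, 177 and 158 FPKM in siC and 184, 203 and 203 FPKM in siI1 of Hep-G2 (log2 fold change 0.24, SE 0.07, adjusted p = 0.031). BE(2)-C had 201, 228 and 208 FPKM and 188, 181 and 184 FPKM (log2 fold change −0.20, SE 0.06, adjusted p = 0.035). These groups did not overlap, but both calls were fragile. The rise in Hep-G2 was lost without siC 1, siC 3, siI1 2 or siI1 3 (0.21 to 0.23) and with equal sums of FPKM (0.07), and the decrease in BE(2)-C without siC 2, siC 3, siI1 1, siI1 2 or siI1 3 (−0.22 to −0.15) and under both other scalings. RFC3, a subunit of the clamp loader, was lower in both lines, with 11.4, 11.9 and 11.5 FPKM and 8.46, 7.07 and 7.21 FPKM in Hep-G2 (log2 fold change −0.61, SE 0.08, adjusted p = 0.001) and 35.5, 41.2 and 41.7 FPKM and 30.3, 30.7 and 29.97 FPKM in BE(2)-C (log2 fold change −0.38, SE 0.07, adjusted p = 0.0068). RFC4 had 8.62, 8.52 and 7.65 FPKM and 6.59, 7.06 and 7.06 FPKM in Hep-G2 (log2 fold change −0.25, SE 0.07, adjusted p = 0.027), and 19.01, 20.5 and 19.5 FPKM and 15.95, 16.2 and 16.1 FPKM in BE(2)-C (log2 fold change −0.29, SE 0.05, adjusted p = 0.0044). Groups of RFC3 and RFC4 did not overlap, and the Hep-G2 call of RFC4 was lost without siC 1, siC 2, siI1 2 or siI1 3 (−0.27 to −0.22) and with median centring (−0.16). RFC2 and RFC5 fell in BE(2)-C by 0.48 each on the log2 scale, while in Hep-G2 RFC5 was called lower with equal sums of FPKM (−0.42) and without siC replicate 2 (−0.34). The large subunit RFC1 was called in neither line.

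All 3 subunits of the single-strand binding protein RPA decreased in BE(2)-C, where median centring left 2, and 2 increased in Hep-G2, where equal sums of FPKM gave 1 increase and 1 decrease. RPA3 rose in Hep-G2 from 8.61, 8.99 and 7.83 FPKM to 10.5, 12.5 and 13.7 FPKM (log2 fold change 0.52, SE 0.11, adjusted p = 0.008). Its level in BE(2)-C was 18.4, 19.4 and 18.6 FPKM in siC and 16.1, 14.8 and 15.9 FPKM in siI1 (log2 fold change −0.27, SE 0.05, adjusted p = 0.0098). The RPA2 values were 17.7, 17.1 and 18.5 FPKM and 19.4, 19.9 and 20.2 FPKM in Hep-G2 (log2 fold change 0.16, SE 0.05, adjusted p = 0.043), and 27.7, 25.6 and 25.7 FPKM and 23.7, 23.5 and 23.3 FPKM in BE(2)-C (log2 fold change −0.16, SE 0.05, adjusted p = 0.04). In neither gene did the groups overlap. For RPA2 the Hep-G2 value was −0.01 with equal sums of FPKM, its call was lost without siC 1, siC 2, siC 3, siI1 2 or siI1 3 (0.13 to 0.19), and the BE(2)-C call was lost without siC 1, siC 2, siC 3, siI1 1, siI1 2 or siI1 3 (−0.18 to −0.13). RPA1 fell in BE(2)-C (−0.32, adjusted p = 0.014), a call lost without siI1 2 or siI1 3 (−0.29 to −0.28), and was called lower in Hep-G2 with equal sums of FPKM (−0.25).

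The enzymes of Okazaki fragment maturation moved together in BE(2)-C and apart in Hep-G2. The flap nuclease FEN1 had 22.9, 20.5 and 20.7 FPKM in siC and 11.9, 17.3 and 15.1 FPKM in siI1 of Hep-G2 (log2 fold change −0.54, SE 0.13, adjusted p = 0.015), with the lowest value in replicate 1 of siI1 and a call lost without siC 1 (−0.49). FEN1 also fell in BE(2)-C, from 52.8, 56.9 and 54.3 FPKM to 43.5, 43.8 and 41.4 FPKM (log2 fold change −0.35, SE 0.05, adjusted p = 0.0022). LIG1, the ligase that seals the fragments, rose in Hep-G2 from 6.25, 5.82 and 5.42 FPKM to 7.298, 7.82 and 7.19 FPKM (log2 fold change 0.35, SE 0.08, adjusted p = 0.01), which was not called with equal sums of FPKM (0.18). It fell in BE(2)-C from 13.4, 12.5 and 13.1 FPKM to 10.2, 9.78 and 9.52 FPKM (log2 fold change −0.40, SE 0.05, adjusted p = 0.0024). Groups of FEN1 and LIG1 overlapped in neither line.

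Of the 5 genes of nucleotide supply, 4 were lower in BE(2)-C with a median of −0.43, whereas Hep-G2 had 1 lower and 1 higher with a median of −0.00. Equal sums of FPKM gave 3 lower and 1 higher (median −0.17), and median centring 1 lower and 2 higher (median 0.09). RRM2 (chr2:10120698-10211725), the small subunit of ribonucleotide reductase that limits the enzyme in S phase, was at 27.4, 27.7 and 27.2 FPKM in siC and 12.7, 12.4 and 12.3 FPKM in siI1 of Hep-G2. BE(2)-C had 84.1, 82.5 and 76.98 FPKM and 54.00, 53.00 and 51.7 FPKM. The replicates lay close together and the groups far apart (log2 fold change −1.14, SE 0.05, adjusted p = 9.3e-06 in Hep-G2 and log2 fold change −0.62, SE 0.05, adjusted p = 0.00032 in BE(2)-C). The large subunit RRM1 overlapped between the groups in both lines, with log2 fold changes of −0.00 and −0.06, although with equal sums of FPKM RRM1 was lower in Hep-G2 (−0.17). The ratio of RRM2 to RRM1, which does not depend on library scaling and was picked after the values were seen, was 2.07 ± 0.0758 (SD, n = 3) in siC and 0.943 ± 0.0577 in siI1 of Hep-G2, and 3.19 ± 0.396 and 2.16 ± 0.0413 in BE(2)-C. Its groups did not overlap in either line.

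TYMS (chr18:657653-673578), thymidylate synthase, rose in Hep-G2 from 48.5, 48.5 and 49.2 FPKM to 62.03, 67.2 and 70.1 FPKM (log2 fold change 0.44, SE 0.06, adjusted p = 0.00095) and fell in BE(2)-C from 64.4, 66.4 and 61.8 FPKM to 47.9, 49.6 and 45.2 FPKM (log2 fold change −0.43, SE 0.05, adjusted p = 0.0014). The groups did not overlap in either line. ENOSF1, on the opposite strand, shares 39.9% of the exonic bases of TYMS, and the antisense gene TYMSOS 7.97%. Mean reads per library were 493 for TYMSOS and 602 for ENOSF1 in Hep-G2, against 28.7 and 403.5 in BE(2)-C. As the strand setting of the counting is not stated, reads of TYMS and of these genes in the shared stretches cannot be told apart. TK1 (chr17:78174091-78187233), the thymidine kinase of the salvage pathway, fell in BE(2)-C from 121, 112 and 112 FPKM to 64.2, 65.4 and 64.2 FPKM, a clear separation (log2 fold change −0.83, SE 0.05, adjusted p = 0.00015). In Hep-G2, its values of 30.9, 32.4 and 29.6 FPKM and 25.1, 31.1 and 33.4 FPKM overlapped (−0.06, adjusted p = 0.68), though TK1 was called lower with equal sums of FPKM (−0.23), and the lowest value was in siI1 replicate 1. DUT, which removes dUTP, was lower in BE(2)-C (−0.24, adjusted p = 0.018), a call lost without siI1 1, siI1 2 or siI1 3 (−0.25 to −0.23). In Hep-G2 it was not called (0.19), but was higher with median centring (0.28) and without siI1 replicate 1 (0.25).

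**Figure D3:**
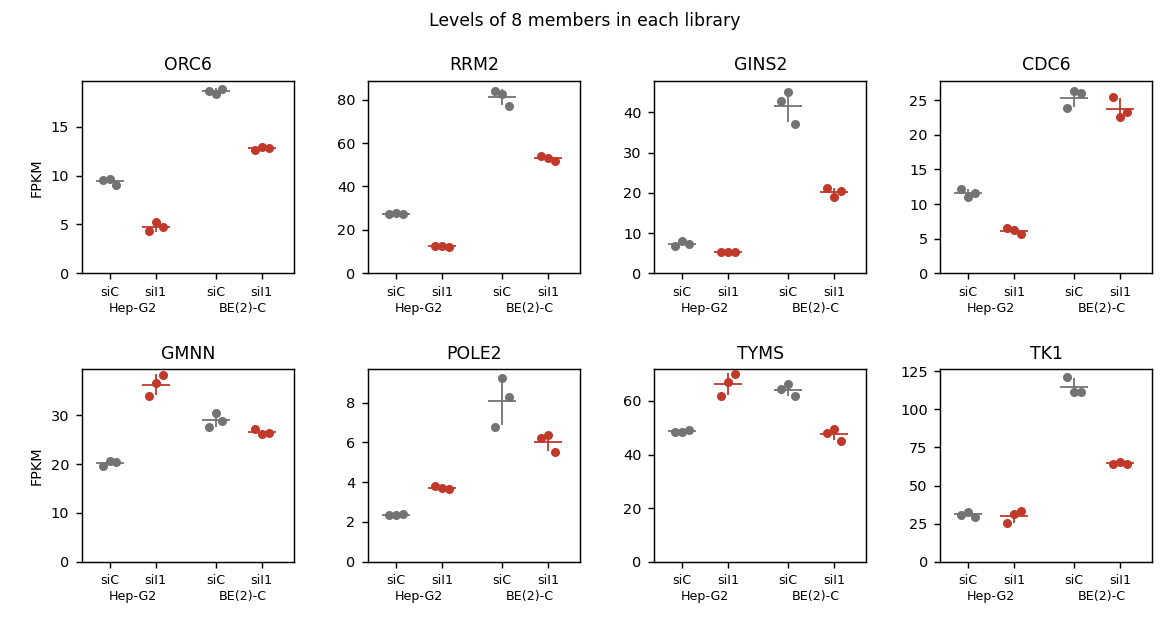
FPKM of 8 members in each library (points), with the mean (horizontal line) and SD (vertical line) of 3 libraries, on the scale of each line's own table, for siC (gray) and siI1 (red) in both lines. ORC6, RRM2 and GINS2 were lower in both lines, CDC6 in Hep-G2 and TK1 in BE(2)-C, GMNN and POLE2 rose in Hep-G2, and TYMS rose in Hep-G2 but fell in BE(2)-C.

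The difference between the lines was tested for each member as the log2 fold change in Hep-G2 minus that in BE(2)-C. It was called for 32 of 48 members, with 20 positive and 12 negative values, beside 40.2% of all genes, of every type, tested in both lines. Equal sums of FPKM gave 17 positive and 18 negative values, and median centring 20 and 10. With a library left out, 28 to 34 members were called, the 34 without the library that stood apart. In the main scaling, differences of polymerase and primase genes were positive in all 5 called cases, as were those of the 3 RPA subunits. With equal sums of FPKM, PRIM1 (0.39), RPA1 (0.05) and RPA2 (0.13) lost this call and PRIM2 was called at −0.39. The difference of RPA1 was also lost in 10 of 12 fits with a library left out. In licensing and in origin firing, 5 of 7 called differences were negative in each, and 3 to 6 were with a library left out or under the other scalings. The 10 largest differences belonged to POLE2 (1.04, SE 0.15, adjusted p = 0.0002), GMNN (0.97, SE 0.08, adjusted p = 3.7e-06), POLD2 (0.90, SE 0.13, adjusted p = 0.00019), GINS3 (−0.88, SE 0.28, adjusted p = 0.026), TYMS (0.88, SE 0.08, adjusted p = 7.9e-06), CDC6 (−0.80, SE 0.10, adjusted p = 8e-05), RPA3 (0.78, SE 0.13, adjusted p = 0.00054), CDT1 (0.78, SE 0.12, adjusted p = 0.00051), TK1 (0.77, SE 0.12, adjusted p = 0.00055) and LIG1 (0.74, SE 0.09, adjusted p = 8.5e-05). That of GINS3 was lost without Hep-G2 siC 1, Hep-G2 siC 3 or BE(2)-C siI1 3 (−0.86 to −0.78) and with a pseudocount of 1 (−0.40). Over the 48 members, the log2 fold changes of the lines had a Pearson r of 0.11, given as a description, since members share libraries, and 26 members had the same sign in both.

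**Figure D4:**
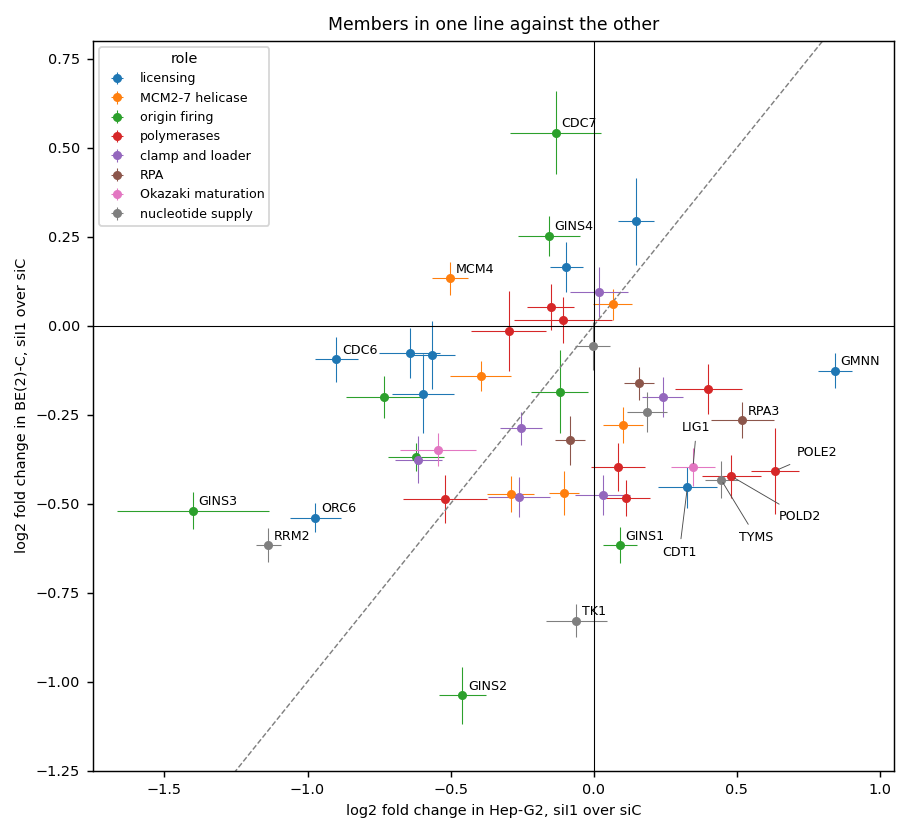
Log2 fold change of each of the 48 members in BE(2)-C (vertical) against Hep-G2 (horizontal), colored by role, with standard errors as bars and equal change on the dashed line. ORC6, RRM2 and GINS3 lie low in both lines, GMNN, POLE2, POLD2, RPA3 and TYMS lie at the right below the horizontal line, and CDC7 and GINS4 lie above it.

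Other genes of replication, which are not members, were taken as a list of 40. Of these, 15 were lower and 3 higher in Hep-G2 (median −0.16), and BE(2)-C had 19 and 2 (median −0.22). Median centring gave 13 lower and 5 higher in Hep-G2 (median −0.07), and equal sums of FPKM 20 and 2 (median −0.32). The higher ones numbered 5 without siI1 replicate 1 of Hep-G2, and 1 without siI1 replicate 1 or 3 of BE(2)-C. DTYMK, the thymidylate kinase, fell in both lines, from 23.8, 26.3 and 24.5 FPKM to 8.33, 9.11 and 10.9 FPKM in Hep-G2 and from 93.9, 93.3 and 87.1 FPKM to 39.8, 41.6 and 38.1 FPKM in BE(2)-C (log2 fold change −1.39, SE 0.10, adjusted p = 8.3e-05 and log2 fold change −1.20, SE 0.05, adjusted p = 8.5e-05). TOP1, the topoisomerase that relaxes DNA ahead of the fork, fell in Hep-G2 from 111, 107 and 113 FPKM to 47.1, 40.1 and 41.6 FPKM (log2 fold change −1.36, SE 0.07, adjusted p = 2.1e-05) and rose in BE(2)-C (0.25, adjusted p = 0.0087). Further genes with small p-values were, for Hep-G2, CHTF8 (−0.92), of an alternative clamp loader, and UHRF1 (−1.09), which maintains DNA methylation, and, for BE(2)-C, the chromatin assembly factor CHAF1A (−0.54), the helicase RECQL4 (−0.55) and the nucleotide pyrophosphatase DCTPP1 (−0.65). In Hep-G2, DCTPP1 was called higher (0.26, adjusted p = 0.036). That call was lost with equal sums of FPKM (0.10) and without siC 1, siC 2, siC 3, siI1 2 or siI1 3 (0.20 to 0.27).

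Among the 8 E2F factors, 5 decreased in Hep-G2 (median −0.43), while BE(2)-C had 3 decreases and 1 increase (median −0.13). E2F1 fell from 17.2, 18.1 and 16.6 FPKM to 8.92, 11.3 and 10.97 FPKM in Hep-G2 (log2 fold change −0.74, SE 0.10, adjusted p = 0.001) and from 96.4, 84.99 and 83.5 FPKM to 50.97, 53.4 and 52.3 FPKM in BE(2)-C (log2 fold change −0.75, SE 0.06, adjusted p = 0.00039). E2F2 was lower in both lines (−1.05 and −0.91), as was E2F4 (−0.48 and −0.22), whose BE(2)-C call was lost without siC 3, siI1 1, siI1 2 or siI1 3 (−0.23 to −0.19). E2F3 and E2F6 were lower in Hep-G2 (−0.71 and −0.38), and E2F5 was higher in BE(2)-C (0.54). The differences between the lines were 0.02 for E2F1 and −0.15 for E2F2, and neither was called. Those of E2F3 (−0.67), E2F6 (−0.45) and E2F5 (−0.40) were called, each with a negative sign. Mitotic genes were lower in both lines, 9 of 15 in Hep-G2 (median −0.40, and 13 with equal sums of FPKM) and 13 of 15 in BE(2)-C (median −0.34, and 9 without siC 2, siI1 1 or siI1 3). Without siI1 replicate 1, Hep-G2 had 10 lower and 1 higher. For comparison, the share of protein-coding genes that were lower was 30.5% for Hep-G2 and 19.9% for BE(2)-C. The paper names E2F1, E2F2, AURKA, CDK1, MKI67 and PLK1 among genes reduced by knockdown across all its cell lines. As the present libraries entered that selection, the decrease of these genes was known beforehand and is not a separate finding. Of the mitotic genes, the smallest p-values belonged to AURKA (−0.91), CDK1 (−0.74), KIF11 (−0.87) and BUB1B (−0.81) in Hep-G2, and to AURKB (−0.69), CDC20 (−0.63), PLK1 (−0.65) and CDK1 (−0.54) in BE(2)-C. In Hep-G2, AURKB was at 0.23 and not called (adjusted p = 0.066), but it was called higher with median centring (0.32), with the replicate number as a block and without siI1 replicate 1 (0.28). In the main scaling, the difference between the lines was called for 10 of the 15 mitotic genes, with 4 positive and 6 negative values. Among the named ones, equal sums of FPKM removed the call of PLK1 (0.10) and added that of CDK1 (−0.39).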

How the data were processed

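Poly-A RNA-seq libraries of Hep-G2 and BE(2)-C cells were sequenced by the authors, 3 per siRNA and line. As the authors state, reads were clipped with Cutadapt 1.14, aligned to hg38 with HISAT2 2.1.0, handled with SAMtools 1.5, summarized per gene of the Ensembl annotation with featureCounts 1.5.3 and normalized with edgeR 3.30.3 (TMM). The strand setting of counting is not stated, although the libraries were strand-specific. The deposited values are FPKM, a unit inferred from the values because the header names none, since products of value and gene length gave whole reads in each library for 100% of nonzero values (tolerance 0.01 reads). The deposited tables also hold gene length as another column and the authors' fold changes and p-values, which were not used.

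Genes with at least 0.1 FPKM in 3 of 6 libraries were tested within each table on log2(FPKM + 0.1), two-sided, by limma 3.58.1 (R 4.3.3, trended variance), with Benjamini-Hochberg adjustment over all tested genes at 0.05. The difference between the lines came from a limma fit of the 4 groups. The fit was tested on simulated data in which every gene and library had the same spread setting. As the spread differed among the real libraries, this does not show how the fit performs on them. Alternatives covered pseudocount, filter, trend, scaling, threshold, replicate block, left-out libraries and limma voom on recovered reads. Members and lists were chosen with earlier results of these data known. Named are IGF2BP1, members called in both lines, the 5 largest changes in each direction and line, the 10 largest differences, MCM2-7 and, of each other list, the 4 genes of each line with the smallest p. Further members were named after their values were seen. Gene coordinates are those of GENCODE release 44 on hg38.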

Additional observations from a re-analysis of the deposited data

Results flagged for a closer look

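The change upon knockdown differed between the lines for 32 members in the test of the difference itself, and each value is the log2 fold change in Hep-G2 minus that in BE(2)-C. In licensing, the difference was 0.97 for GMNN, 0.78 for CDT1, −0.80 for CDC6, −0.57 for ORC5, −0.48 for ORC2, −0.43 for ORC6 and −0.26 for ORC3. Subunits of the MCM2-7 ring differed by −0.64 for MCM4, 0.38 for MCM7 and 0.37 for MCM2. With equal sums of FPKM, MCM6 (−0.44) and MCM3 (−0.18) were called too, so that 2 were positive and 3 negative, and MCM6 was also called without Hep-G2 siC replicate 3 (−0.36), as MCM5 was without Hep-G2 siI1 replicate 1 (0.26). Among origin firing factors the values were −0.88 for GINS3, 0.71 for GINS1, −0.68 for CDC7, 0.58 for GINS2, −0.53 for MCM10, −0.41 for GINS4 and −0.25 for CDC45.

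In the main scaling, the called differences of polymerases and primase were positive, at 1.04 for POLE2, 0.90 for POLD2, 0.60 for POLD1, 0.58 for PRIM1 and 0.48 for POLE. So were those of clamp, clamp loader, RPA and ligase, at 0.51 for RFC2, 0.44 for PCNA, 0.78 for RPA3, 0.32 for RPA2, 0.24 for RPA1 and 0.74 for LIG1. With equal sums of FPKM, the differences of PRIM1 (0.39), RPA1 (0.05) and RPA2 (0.13) lost their call, and those of PRIM2 (−0.39), RFC3 (−0.42) and FEN1 (−0.38) were called and negative, RFC3 also without Hep-G2 siI1 replicate 1 (−0.32). In nucleotide supply, TYMS differed by 0.88, TK1 by 0.77, DUT by 0.43 and RRM2 by −0.52. With a library left out, the difference of CDC45 lost its call in 10 of 12 cases, that of RPA1 in 10, of ORC3 in 9, of GINS3 in 3 and of CDC7 in 2. With a pseudocount of 1, GINS3 (−0.40) and CDC45 (−0.13) lost it, and with median centring ORC3 (−0.21) and CDC45 (−0.20). The cell line and the siRNA concentration cannot be told apart as the source of these differences.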

How the results depend on the processing

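Over single members and alternatives, including left-out libraries, 692 of the values in Hep-G2 kept their direction and side of the threshold, or stayed uncalled, while 61 lost and 14 gained a call. In BE(2)-C, 690 kept it, 73 lost and 5 gained one. Of the differences between the lines, 987 kept it, 57 lost and 11 gained one. Among values called in the main scaling or under the alternative, direction turned for RPA2 in Hep-G2 (−0.0085) and for the difference of MCM3 (−0.18), both with equal sums of FPKM. Counting uncalled values too, 9 members changed sign in Hep-G2 with equal sums and 3 with median centring, as did POLD3 in BE(2)-C with either. IGF2BP1 stayed lower under every alternative.

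The count of members higher in Hep-G2, 10, became 6 without the mean-variance trend, 5 with equal sums of FPKM and 5 at an adjusted p below 0.01. Leaving out 1 library gave 6 to 11. For BE(2)-C, the 2 higher members became 4 with voom on recovered reads, 0 at an adjusted p below 0.01 and 0 to 2 with a library left out. The median of members in Hep-G2, −0.11, became −0.0894 with a pseudocount of 1, −0.0159 with median centring and −0.27 with equal sums, and that in BE(2)-C, −0.27, became −0.23 with median centring. The cause was not tested.

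Lower members numbered 12 to 18 in Hep-G2 and 23 to 30 in BE(2)-C with a library left out. With the replicate number as a replicate block, Hep-G2 had 17 lower and 9 higher members and BE(2)-C 26 and 2. Same-numbered libraries deviated from their group means with correlations of 0.0625, 0.0351 and −0.00619 (Hep-G2) and 0.0225, −0.0102 and −0.00283 (BE(2)-C). These values show no pairing by number, but they cannot exclude it, since the deviations of all tested genes include counting noise. Depth limits genes such as GINS3, with 38 reads in its lowest Hep-G2 library. Exonic bases are shared with another annotated gene by 23 members.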
